A study of Mus musculus with 6 samples.

Results

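The genes described here are those by which the nephric duct and the mesenchyme beside it start the permanent kidney. They are the ligand gene Gdnf, its receptor genes Ret and Gfra1, the transcription factor genes Sall1, Osr1 and Emx2, the matrix gene Npnt, the duct marker Calb1 and the protease inhibitor gene Spint2. Members were all probes that carry 1 of these 9 symbols in the platform's annotation. That gave 8 probes of 20289 on the array, for 7 genes, with a pair of probes for Calb1. Gdnf and Spint2 have no probe under their symbols in the annotation used and were not analysed here. Of the 8 probes, 7 passed the filter on low signal and were tested, covering 6 genes, and the Gfra1 probe did not.

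RNA came from urogenital ridges, the paired folds of the embryo that carry the future gonad, its covering epithelium and the mesonephros with its duct. Wild-type embryos of the Mf1 stock were compared with Mf1 embryos homozygous for a deletion of Wt1, which encodes a zinc finger transcription factor of the ridge. All embryos were at E11.5 with 11 to 12 tail somites, and there were 6 arrays, 3 per genotype. For each array the labels name 5 pooled embryos, of which 4 were female and 1 male. The labels give no separate pools, and the series text speaks of 5 embryos per genotype measured on 3 arrays, so the p-values measure spread between arrays only, and that spread may be technical.

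In the developing kidney, GDNF is secreted by the metanephric mesenchyme and binds GFRA1 on cells of the nephric duct, and the complex activates the receptor tyrosine kinase RET, which drives the ureteric bud out of the duct. The zinc finger proteins SALL1 and OSR1 and the homeobox protein EMX2 are each needed for this organ, SALL1 and OSR1 in the mesenchyme and its precursors and EMX2 in the duct and bud. Nephronectin, encoded by Npnt, is laid down by the bud and bound by an integrin of the mesenchyme. RET and GFRA1 are also made by enteric and other peripheral neurons and by motor neurons.

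Wt1, the deleted gene, was lower in the knockout on its brighter probe (2836), with a mean of 42.3 ± 2.77 in wild type and 14.7 ± 0.788 in knockout (SD, n = 3 each). The position of that probe relative to the deletion is not given in the sources used here. Values are the deposited spot intensities, in arbitrary units, in which the median probe of an array lies between 0.956 and 0.966. Intensities of different probes do not rank the genes, since probes differ in how well they bind. A probe was tested if its mean lay above an intensity of 0.217, the 25th percentile of probe means, which serves below as the limit for dim probes. A change was called at an adjusted p under 0.05 in limma's moderated test over 15066 probes. Across the array 41.3% of the tested probes were called, 24.1% as higher and 17.2% as lower in the knockout, and the median log2 change was 0.09. The split depended on the scaling, with 3043 probes higher and 2953 lower after quantile normalization and 2970 and 3028 after cyclic loess, against 3625 and 2596 here. Of the 7 member probes, 3 were called (42.9%), those for Ret and Osr1 as higher and that for Emx2 as lower. That share lay near the 41.3% of the array, and after quantile or cyclic loess normalization it was 4 of 7 (57.1%), against 39.8% of all tested probes. None of the 3 changes reached 2-fold, a size called at 4.69% of the tested probes.

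Ret, the signalling receptor of the pathway, was higher in the knockout. Intensities were 2.55, 2.28 and 2.31 on the wild-type arrays, against 2.91, 3.45 and 3.12 in the knockout. Each knockout array lay above each wild-type array, with a gap of 0.356 between the highest wild-type and the lowest knockout value. Means of 2.38 ± 0.148 and 3.16 ± 0.273 (SD, n = 3 each) gave a rise of 1.33-fold (log2 change 0.41 ± 0.09, SE, 95% interval 0.20 to 0.61, adjusted p = 0.00449, limma). The change was moderate against the rest of the array, where 20.2% of the tested probes had a larger log2 change. Which splice forms of the receptor the probe detects is not known here.

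Gfra1, which encodes the co-receptor that binds GDNF, gave a signal at the bottom of the array's range. Its intensities were 0.143, 0.0164 and 0.125 in wild type and 0.240, 0.112 and 0.207 in knockout. Only the first knockout array lay above the limit for dim probes, and the genotypes overlapped. No change can be read from this probe. With dim probes kept in the fit, its log2 change was 0.65 with adjusted p = 0.331.

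**Figure D1:**
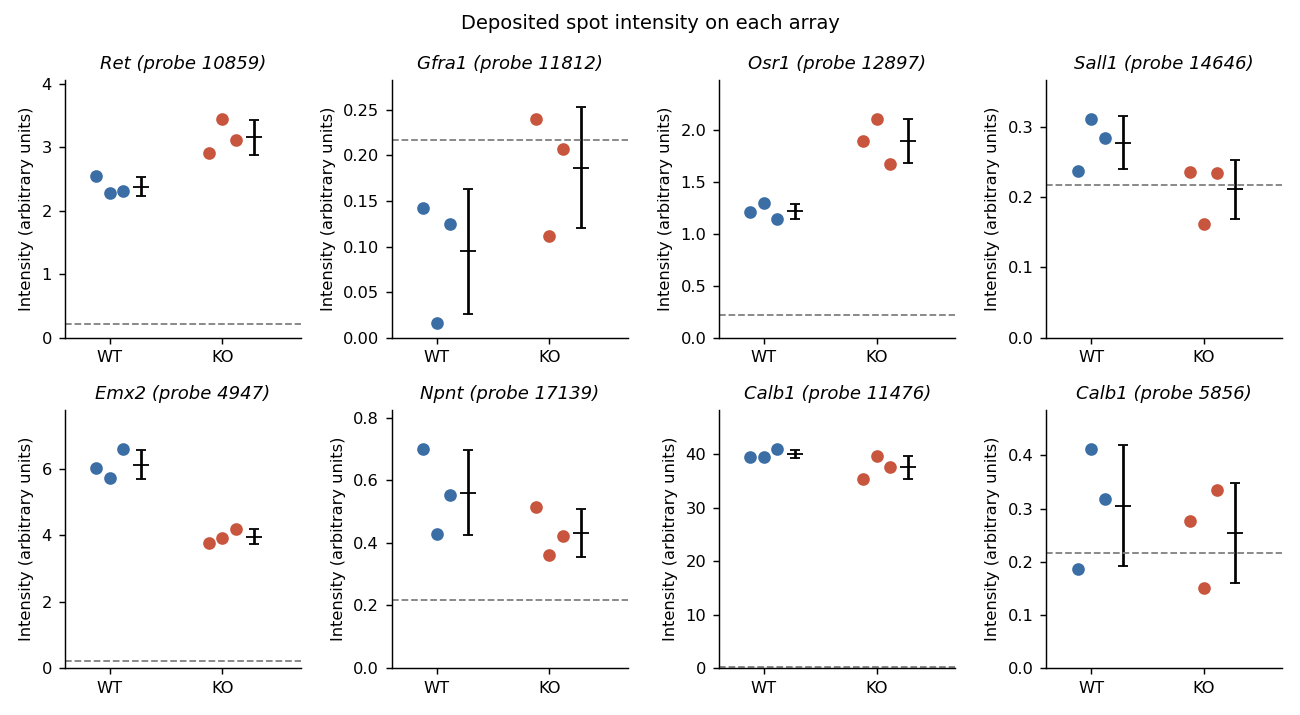
Deposited intensity (arbitrary units, linear axis from 0) of each member probe on the 3 wild-type (WT, blue) and 3 knockout (KO, red) arrays, with the mean and SD in black and the limit for dim probes, 0.217, as a dashed line. Ret and Osr1 lie higher and Emx2 lower on every knockout array than on every wild-type array, while Gfra1, Sall1 and the dimmer Calb1 probe lie around the limit.

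Osr1, an odd-skipped zinc finger gene of the intermediate mesoderm and one of the earliest genes of the kidney lineage, was also higher. Its intensities were 1.21, 1.29 and 1.14 in wild type and 1.89, 2.10 and 1.67 in knockout. The genotypes did not overlap, and the lowest knockout array exceeded the highest wild-type array by 0.382. Means of 1.22 ± 0.0734 and 1.89 ± 0.214 (SD, n = 3 each) gave a rise of 1.55-fold (log2 change 0.63 ± 0.11, SE, 95% interval 0.39 to 0.88, adjusted p = 0.000878, limma). A larger log2 change was seen at 7.94% of the tested probes.

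Its close relative Osr2, a gene of the mesonephros, moved the opposite way. Osr2 intensities were 13.8, 13.5 and 12.9 in wild type and 2.55, 2.65 and 2.51 in knockout. The genotypes lay far apart, with a fall of 5.22-fold (log2 change -2.39 ± 0.07, SE, adjusted p = 1.59e-09, limma). The ratio of Osr1 to Osr2 within an array, set to the wild-type mean, was 7.37 to 8.77 in the knockout against 0.972 to 1.05 in wild type, so these paralogues changed unequally on every array. This ratio and those given below for Ret and Emx2 were chosen after the values were seen and are descriptions with no test.

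Sall1, a spalt zinc finger gene that the metanephric mesenchyme needs to attract the bud, was dim and did not pass. Wild-type intensities were 0.238, 0.311 and 0.284, and knockout intensities were 0.236, 0.162 and 0.235. All 3 knockout values lay below the wild-type ones, but by only 0.00203 at the nearest pair, and 1 of them lay below the limit. The mean of the knockout's log2 values also lay below the limit. The probe thus passed the filter only through wild type and could only be called as lower. Non-overlap of this kind is common on the array, where it held for 52.8% of the tested probes, and for 4 of the 7 member probes. The log2 change was -0.41 ± 0.40 (SE), and its 95% interval runs from a knockout level of 0.413 to 1.37 times the wild-type level (adjusted p = 0.435, limma). Sall1 lies in the dimmest of 8 equal brightness classes of the tested probes, in which only 5.52% of the probes were called. Among its relatives, Sall4, a spalt gene of stem and germ cells, fell 1.50-fold (log2 change -0.58 ± 0.15, SE, adjusted p = 0.00809), and Sall2 had a log2 change of -0.20 with adjusted p = 0.0705. Sall2 passed as lower after quantile and cyclic loess normalization, with adjusted p = 0.0224 and 0.0130, and both relatives were singled out after their values were seen.

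Emx2, a homeobox gene of the nephric duct and bud that is also active in the coelomic epithelium of the gonad, was the member that fell. Its intensities were 6.04, 5.73 and 6.59 in wild type and 3.77, 3.92 and 4.20 in knockout. The highest knockout array lay 1.53 below the lowest wild-type array. Means of 6.12 ± 0.437 and 3.96 ± 0.218 (SD, n = 3 each) gave a fall of 1.54-fold (log2 change -0.63 ± 0.08, SE, 95% interval -0.81 to -0.44, adjusted p = 0.000116, limma). A lower log2 change was seen at 9.42% of the tested probes. Emx1, its paralogue, was too dim to be tested.

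Since the deleted gene encodes a DNA-binding protein, the 250 bases upstream of the Emx2 start are shown, the only upstream window in the RefSeq table used here for a member that was called. The window is chr19:59458440-59458689 on the plus strand of GRCm38.p6, written 5′ to 3′ with a CCAAT box, a common promoter element whose first base lies 21 bases before the start, in capitals. The box was looked for after the sequence was seen.
Emx2 upstream window: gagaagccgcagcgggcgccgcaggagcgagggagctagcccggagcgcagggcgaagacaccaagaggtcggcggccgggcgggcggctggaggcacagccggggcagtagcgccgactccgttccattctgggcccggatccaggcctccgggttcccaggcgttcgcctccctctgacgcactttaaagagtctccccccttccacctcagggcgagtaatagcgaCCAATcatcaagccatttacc
The window is rich in G and C (67.2%, above 86.5% of all such windows). GCGTGGG, the core of the GC-rich site bound by WT1 and EGR proteins, was searched on both strands and was not found in it. These letters occur in 4.31% of all 32817 upstream windows of this length, and CCAAT on either strand in 33.8%. A missing match says only that these letters are not in this window. Among all 10 windows of the 6 members in the table, 2 held GCGTGGG, 1 of them before a Sall1 start and the other before that of Spint2.

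Npnt, which encodes the matrix ligand nephronectin, did not pass. The wild-type arrays had 0.700, 0.427 and 0.554 and the knockout arrays 0.514, 0.360 and 0.421. The genotypes overlapped, and the spread between wild-type arrays was wide (SD 0.136 around a mean of 0.560). The log2 change was -0.36 ± 0.24 (SE), with a 95% interval from 0.537 to 1.13 times the wild-type level (adjusted p = 0.259, limma). Itga8, the integrin chain through which mesenchyme binds nephronectin, was too dim to be tested, at 0.207 ± 0.0745 in wild type and 0.201 ± 0.101 in knockout (SD, n = 3 each). Of 9 tested genes among nephronectin's receptors and basement membrane partners, 3 fell and 1 rose (44.4% called, against 41.3% of the array). Under quantile and cyclic loess normalization the matrix gene Tnc, named after its values were seen, fell as well. The laminin chain gene Lamc1 fell 1.58-fold, Lamb1 1.43-fold and the integrin chain gene Itgb5 1.38-fold. Vtn, which encodes another integrin ligand, vitronectin, rose from 0.302 to 2.23. Itgb1, the partner chain of Itga8, had probes that disagreed. Its brighter probe had a log2 change of 0.27 with adjusted p = 0.0832, and a dimmer one fell. Itga8 and Itgb1 were singled out after their values were seen. Egfl6, a matrix gene related to Npnt, rose 1.82-fold (log2 change 0.86 ± 0.32, SE, adjusted p = 0.0461, limma), a call that was lost with quantile normalization (adjusted p = 0.0763) and with cyclic loess (0.0959). It was the 1 gene that rose among 11 tested relatives of the members, of which 5 fell (54.5% called, against 41.3% of the array).

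Calb1 encodes calbindin, a calcium-binding protein used as a stain for the nephric duct and ureteric bud. Its brighter probe (11476) had wild-type intensities of 39.6, 39.6 and 41.0 and knockout intensities of 35.4, 39.8 and 37.7. The second knockout array lay within the wild-type range. Means of 40.0 ± 0.792 and 37.6 ± 2.20 (SD, n = 3 each) gave a log2 change of -0.09 ± 0.07 (SE, adjusted p = 0.321, limma), with a 95% interval from 0.842 to 1.04 times the wild-type level. The reading of this probe depended on the scaling. Among the brightest of the 8 classes, to which it belongs, the median log2 change was 0.26, and after quantile or cyclic loess normalization Calb1 was called as lower (log2 change -0.33 with adjusted p = 0.00140, and -0.29 with adjusted p = 0.00358). A second, dim probe (5856) had 0.186, 0.412 and 0.318 in wild type and 0.277, 0.150 and 0.334 in knockout. These overlapped, and its interval of 0.422 to 1.63 times the wild-type level is too wide to bear on the brighter probe. S100g, a small vitamin D-dependent calcium-binding protein gene, fell at least 4.67-fold (log2 change -2.55 ± 0.34, SE, adjusted p = 0.000118). The bound is set against the limit for dim probes, because the mean of the knockout's log2 values lay below it, with arrays at 0.207, 0.367 and 0.116. Calb2, the closest relative, had a log2 change of 0.21 with adjusted p = 0.202 and was singled out after its values were seen.

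**Figure D2:**
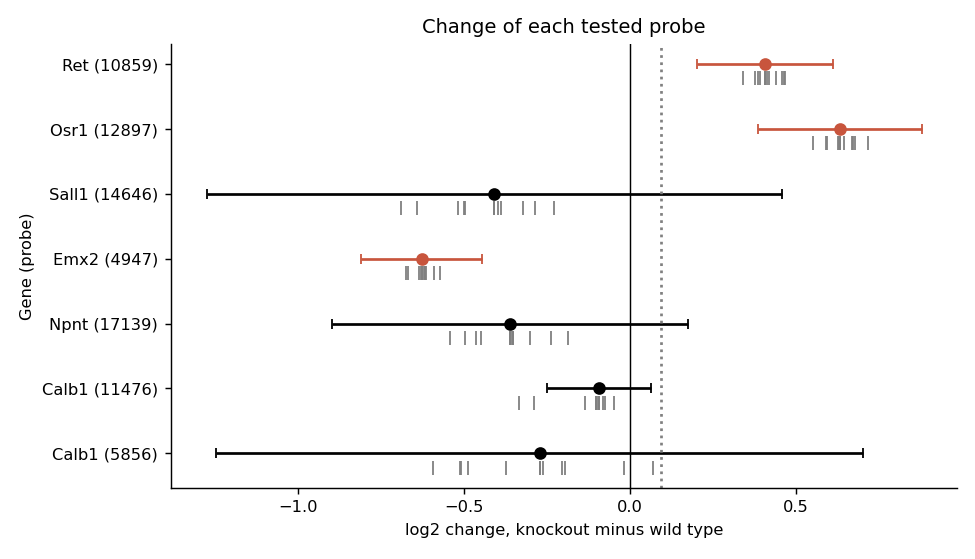
Log2 change in the knockout for the 7 tested member probes (points) with the 95% interval from limma, red where the adjusted p was under 0.05. Grey ticks under each point are the values under the alternative settings, the solid line marks 0 and the dotted line the median of all tested probes, 0.09. The intervals of Ret, Osr1 and Emx2 lie clear of 0, and those of Sall1 and the dimmer Calb1 probe span a wide range on both sides of it.

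The rest of the GDNF family is summarised from lists of pathway genes, in which each gene is represented by its brightest probe with a value on all 6 arrays and the members above are left out. Of 6 tested genes of the family, 1 fell and none rose (16.7% called, against 41.3% of all tested probes). It was Gfra3, the artemin co-receptor of sympathetic and sensory neurons, with 3.63, 3.51 and 3.41 in wild type and 1.94, 2.50 and 2.54 in knockout, which do not overlap. The fall was 1.52-fold (log2 change -0.60 ± 0.11, SE, adjusted p = 0.000911, limma). Ret and Gfra3 thus changed in opposite directions. The neurturin gene Nrtn, another ligand of the family, stood at 4.37 ± 0.266 and 4.45 ± 0.0749 (SD, n = 3 each), with adjusted p = 0.822, and Sdc3, a syndecan that binds GDNF, had a log2 change of 0.14 with adjusted p = 0.298. Gfra4 had a log2 change of -0.04 and Artn, the artemin gene, of 0.59 ± 0.60 (SE). Ncam1, which encodes an adhesion molecule that binds GDNF, had a log2 change of 0.19 with adjusted p = 0.340 on its brighter probe. Pspn and Gfra2 were too dim to be tested. Nrtn, Gfra4, Artn and Ncam1 were singled out after their values were seen.

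Downstream of RET, 4 of 22 tested adaptors, response genes and feedback genes fell and 1 rose, with a list median of -0.01 against 0.09 over all tested probes. The called share was 22.7%, below the 41.3% of the array. Under quantile and cyclic loess normalization 5 fell and none rose, as Mmp14, a matrix protease gene named after its values were seen, joined those that fell. Grb7, an adaptor that binds phosphorylated RET, fell 2.87-fold, from 5.65, 6.04 and 5.60 to 3.17, 1.60 and 1.59 (log2 change -1.52 ± 0.21, SE, adjusted p = 0.000142, limma). The first knockout array was the highest of its genotype and still below every wild-type array. The docking protein gene Gab1 fell 1.49-fold, the adaptor gene Grb2 1.34-fold and the feedback inhibitor gene Spry2 2.0-fold, Grb2 being named after its values were seen. Grb10, an imprinted adaptor gene, rose 1.41-fold on its brighter probe, but its log2 change was 0.00414 after quantile normalization, and its call was lost there and under cyclic loess. The genes that RET signalling is best known to induce in the bud tip did not pass, and were likewise named after their values were seen. Etv4 and Etv5, which encode ETS transcription factors, had log2 changes of -0.18 and 0.39, Wnt11, a ligand gene of the tip, of -0.25, and Spry1, the feedback inhibitor gene that restrains budding, of 0.05. Of these, Spry1 was measured closely (SE 0.08), whereas Etv5 and Wnt11 were dim (SE 0.47 and 0.30). The ridge as described above carries the gonad and the mesonephros with its duct, and whether the samples held bud tips was not tested.

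**Figure D3:**
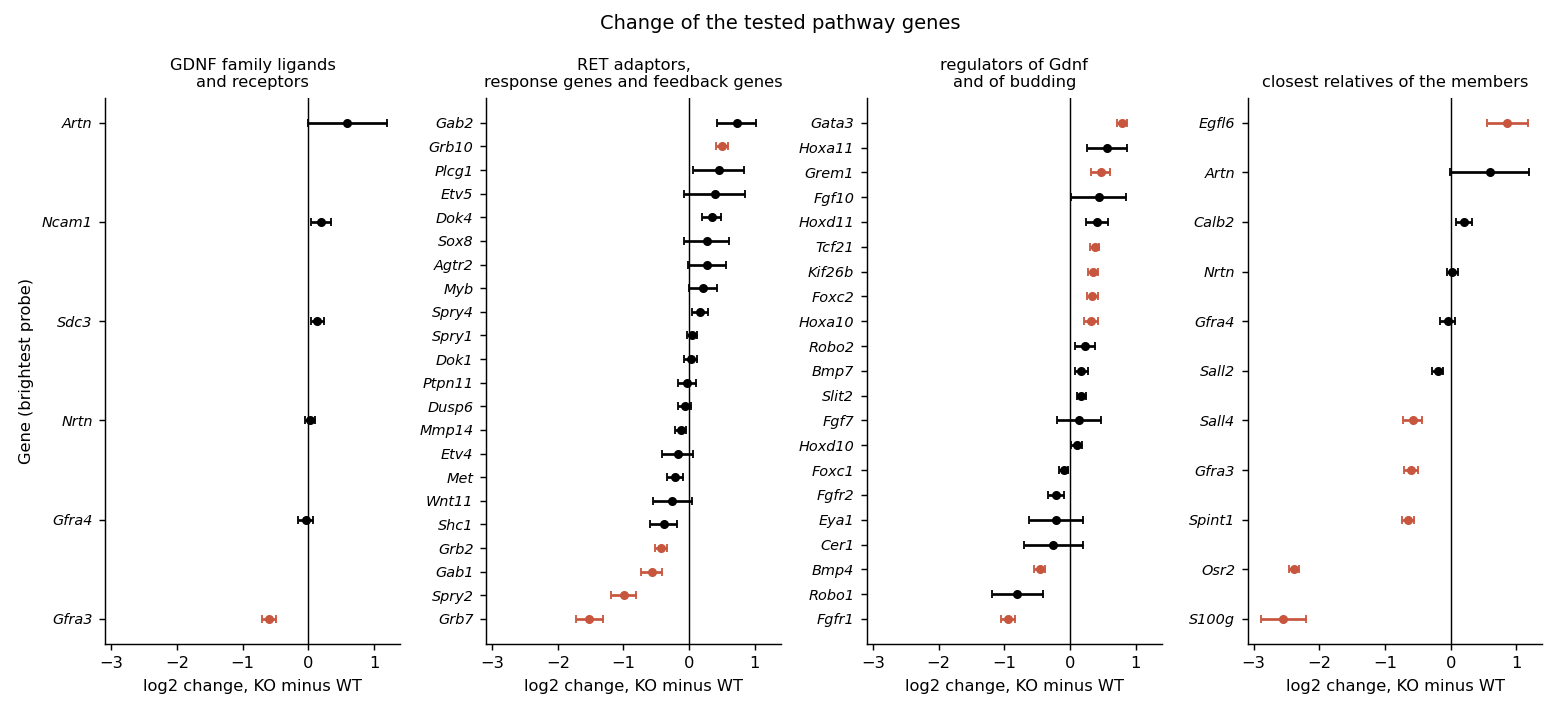
Log2 change in the knockout (points, bars are the SE from limma) of the tested genes of 4 lists, one panel each, red where the adjusted p was under 0.05. Gfra3 is the 1 called gene of the GDNF family panel, and Osr2 and S100g lie farthest from 0 among the relatives of the members.

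Upstream of Gdnf and of budding, 6 of 21 tested regulators rose and 2 fell (38.1% called, near the 41.3% of the array). The list median was 0.17, and the counts were 5 and 3 after quantile or cyclic loess normalization, where Foxc2 lost its call and Foxc1 was called as lower (both named after their values were seen). Gata3, the transcription factor gene that maintains Ret in the nephric duct, rose from 9.41, 9.51 and 9.98 to 15.5, 16.4 and 18.2. Grem1, which encodes the BMP antagonist that permits budding, rose 1.38-fold (log2 change 0.47 ± 0.15, SE, adjusted p = 0.0228, limma). Bmp4, whose product Grem1 holds back, fell 1.38-fold, from 14.5, 12.8 and 15.1 to 9.76, 10.5 and 10.4 (log2 change -0.46 ± 0.08, SE, adjusted p = 0.000738). The growth factor receptor gene Fgfr1 fell 1.92-fold. Neither Slit2 nor Robo2, the guidance ligand and receptor that confine Gdnf to the level of the bud, passed. Their log2 changes were 0.17 ± 0.07 and 0.23 ± 0.15 (SE), with adjusted p = 0.0744 and 0.232, and they were singled out after their values were seen.

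Of the metanephric mesenchyme markers, 17 of the 18 genes on the array were tested. Six2, Pax2 and Hoxc11 were not among the named probes and were not analysed here. Eya1, a regulator that switches on Gdnf in the mesenchyme, was named after its values were seen. It stood near the limit, at 0.319, 0.350 and 0.206 in wild type and 0.159, 0.275 and 0.335 in knockout. Cited1, a gene of nephron progenitors named after its values were seen, was brighter, at 5.09 and 5.31 on average, and did not pass (log2 change 0.05, adjusted p = 0.650). Without Wt1, 3 of 16 tested genes on the list of this tissue fell and 3 rose. With Wt1 counted, 4 of 17 fell (41.2% called in either direction, against 41.3% of the array). Under quantile and cyclic loess normalization 6 fell. Cited2 fell 2.36-fold and Dpf3 2.35-fold, and Meox2, also a somite gene, rose 4.0-fold. The third that fell, Foxd1, a stromal gene, had arrays that overlapped and was named after its values were seen. The summed intensity of the list without Wt1 was 79.1% to 93.8% of the wild-type mean in the knockout, against 96.5% to 102% in wild type. Without Foxd1 as well it was 92.4% to 109% against 99.6% to 101%.

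Nephric duct markers did not move together. Of 23 duct and mesonephric tubule genes on the array, 6 were too dim to be tested, Pax8 and Sim1 among them. Of the 17 tested, 4 rose and 4 fell (47.1% called, against 41.3% of the array). Gata3 and the ephrin receptor gene Epha4 rose, by 1.73-fold and 1.69-fold, while the epithelial cadherin gene Cdh1 fell from 3.06, 2.74 and 2.84 to 1.51, 1.66 and 1.45, and Wnt4 fell 2.15-fold. Cdh16, the kidney-specific cadherin of the duct, was singled out after its values were seen and stood at 12.0 ± 0.521 and 10.7 ± 1.14 (SD, n = 3 each, adjusted p = 0.165, limma). The summed intensity of the 23 genes was 94.3% to 102% of the wild-type mean in the knockout, which overlaps the wild-type range of 97.7% to 102%. That overlap rests on Wnt4, since without it the sum was 114% to 130% in the knockout against 97.0% to 102% in wild type. Nearly all of that gain lay in Epha7 and Gata3, so it does not describe the list as a whole. On average Epha7, named after its values were seen, rose from 25.5 to 38.7 and Gata3 from 9.64 to 16.7. Within an array, the ratio of Ret to the brighter Calb1 probe, set to the wild-type mean, was 1.38, 1.46 and 1.40 in the knockout against 1.08, 0.971 and 0.950 in wild type. The ratio of Ret to Cdh16 was 1.24 to 1.82 in the knockout, and that of Ret to Gata3 was 0.696 to 0.852. Ret thus rose relative to these 2 duct genes and fell relative to Gata3. In bulk tissue, more or fewer cells of a type and more or less RNA per cell cannot be told apart.

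Genes of other cell types known to make RET were read in the same samples. Of 15 tested genes of enteric and sympathetic neural crest, 11 rose and 1 fell, with a median log2 change of 0.56. Their summed intensity was 154% to 158% of the wild-type mean in the knockout, against 99.1% to 102% in wild type, and no gene of that list had a value at or below 0 on any array. The neuronal genes Tubb3 and Elavl3 rose 3.32-fold and 2.73-fold, Stmn2 2.60-fold and the glial gene Fabp7 2.69-fold. Among genes of autonomic neurons and their precursors, Th rose from 2.38 to 5.22 on average (adjusted p = 1.84e-06, limma) and Prph also rose, whereas Phox2a and Dbh did not pass (log2 change 0.10 and -0.04). The glial and crest factor gene Sox10 rose 2.31-fold, these 5 genes being named after their values were seen. Gata2 was the gene of the list that fell, from 1.48 to 0.967 on average (log2 change -0.63, adjusted p = 0.00394, limma). Hand1 did not pass (log2 change 0.06). Gata2 and Hand1 were likewise picked with the values in view. The ratio of Ret to Sox10 within an array was 0.550 to 0.605 in the knockout, and that of Ret to Tubb3 was 0.311 to 0.476, so Ret rose less than either. Of 10 spinal motor neuron and ventral cord genes on the array, 4 were tested and 2 of these rose, Isl1 1.89-fold and Nkx2-2 at least 2.54-fold. Nkx2-2 lay below the limit in wild type (0.0774 on average) and passed the filter only through the knockout. The other 6 genes were too dim to be tested, Isl2, Slc18a3, Slc5a7 and Olig2 among them (named after their values were seen). Of the 10, 4 had a value at or below 0 on some array. The summed intensity of this list was 170% to 202% of the wild-type mean in the knockout, against 95.7% to 103% in wild type. Most of that gain was Isl1, which sympathetic and sensory neurons also make, and without it the sum was 118% to 204% against 85.8% to 108%. Of 12 tested genes of dorsal cord and interneurons, 5 rose and none fell, led by Zic1, Dbx1, Slc17a6 and En1 (under cyclic loess 1 gene, Pax3, was called as lower). The called share was 41.7%, against 41.3% of the array. Dbx1 and Slc17a6 lay below the limit for dim probes in wild type (0.0982 and 0.146 on average). They passed the filter only through the knockout and could only be called as higher. The summed intensity of this list was 174% to 186% against 96.8% to 104%, but nearly all of the gain was Zic1. Without it the sums overlapped, at 93.0% to 111% in the knockout and 96.8% to 105% in wild type. The part of these neural genes in the rise of Ret was not tested.

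Osr1 is also made in lateral plate and gut mesenchyme. Of 14 tested genes of the gut and pancreas list, 8 rose and none fell (57.1% called, against 41.3% of the array). The list's summed intensity was 296% to 312% of the wild-type mean in the knockout against 98.9% to 102% in wild type. Without Barx1 it was 237% to 239% against 98.9% to 101%. The genes that rose were led by Gcg, Pyy, Tlx1 and Ttr. Gcg lay below the limit in wild type (0.161 on average) and passed the filter only through the knockout. Of the list's mesenchyme genes, named after their values were seen, Barx1, a homeobox gene of stomach mesenchyme, rose 5.62-fold. Nkx3-2 rose 1.41-fold and Foxf2 1.23-fold, whereas Nkx2-3 did not pass (log2 change 0.19, adjusted p = 0.111, limma) and Foxf1 was too dim to be tested. Of 17 tested skeletal muscle and somite genes, 11 rose and 1 fell (2 under quantile normalization and 3 under cyclic loess). The called share was 70.6%, against 41.3% of the array, and Tnnc2, Mstn, Myh3 and Dmrt2 showed the largest changes. The summed intensity was 121% to 134% against 98.3% to 101%, and 114% to 126% against 98.4% to 101% without Tcf15 (named after its values were seen). All marker sums are of unscaled intensities and weigh bright probes most. Among the brightest of the 8 classes the median log2 change was 0.26. The part of gut, muscle or somite tissue in the rise of Osr1 was not tested.

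Emx2 fell together with genes of the gonadal primordium and coelomic epithelium. Without Wt1, 11 of 17 tested genes of that list fell and 3 rose, with a median log2 change of -1.23. With Wt1 counted, 83.3% were called, against 41.3% of the array. The summed intensity without Wt1 was 72.5% to 78.3% of the wild-type mean in the knockout, against 96.4% to 103% in wild type. Without Amhr2 as well it was 89.3% to 96.5% against 97.1% to 103%. The fall of Emx2 was smaller than that of the list's most changed genes, Amhr2, Muc16, Aldh1a1 and Lhx9. The ratio of Emx2 to Lhx9, a homeobox gene of the gonadal epithelium, was 2.21 to 2.67 in the knockout when set to the wild-type mean, and that of Emx2 to Wt1 was 1.73 to 2.03. Emx2 thus fell less than either gene on all 3 knockout arrays. Wt1 is the deleted gene and Lhx9 is among the most changed genes, so these ratios do not stand for the list. The list median of -1.23 lay below the log2 change of Emx2, -0.63, but not every gene that fell did. Nr5a1 and Map3k4 fell less, with log2 changes of -0.40 and -0.52, and Gata4 did not pass (log2 change -0.06). Nr5a1, Map3k4 and Gata4 were picked with the values in view. The ratio of Emx2 to Osr1 was 0.370 to 0.498. The part of the gonadal and coelomic cells in the fall of Emx2 was not tested.

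**Figure D4:**
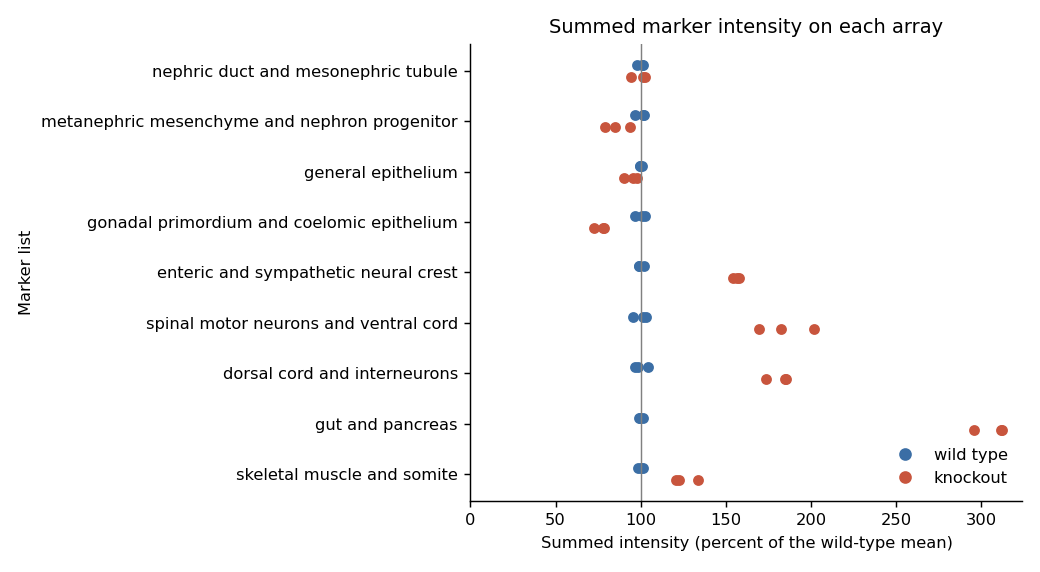
Summed intensity of 9 marker lists on each array, as percent of the wild-type mean (linear axis from 0), with wild-type arrays in blue and knockout arrays in red and without Wt1 and the member genes. Bright probes weigh most in these unscaled sums, and the brightest of the 8 classes had a median log2 change of 0.26. The duct and tubule sums of the genotypes overlap around 100%, the gonadal and coelomic sums lie lower in the knockout, and the neural, gut and muscle sums lie higher, the motor neuron sum mostly through Isl1 and the dorsal cord sum almost wholly through Zic1.

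For Spint2, which restrains membrane serine proteases of epithelia, only its neighbours in the pathway can be described. Its closest relative, the inhibitor gene Spint1, fell 1.57-fold, from 2.15, 2.12 and 2.05 to 1.39, 1.27 and 1.36 (log2 change -0.65 ± 0.09, SE, adjusted p = 0.000187, limma). The arrays of the genotypes lay well apart. Of 10 tested proteases, inhibitors and partners, 2 fell and none rose (20.0% called, against 41.3% of the array). They were Spint1 and the epithelial adhesion gene Epcam, the latter 1.20-fold. The target proteases matriptase and hepsin, encoded by St14 and Hpn, had log2 changes of -0.19 and -0.09, with adjusted p = 0.493 and 0.559, and Met, whose ligand such proteases activate, had a log2 change of -0.22 with adjusted p = 0.188 (singled out after their values were seen). Of 21 tested general epithelial genes, 6 fell and 2 rose (38.1% called, near the 41.3% of the array). The keratin genes Krt8 and Krt19 fell 2.70-fold and 1.63-fold beside Cdh1 and Spint1, while the claudin genes Cldn3 and Cldn4, named after their values were seen, rose 1.31-fold and 1.32-fold. The summed intensity of the epithelial list was 90.3% to 97.7% of the wild-type mean in the knockout, against 99.5% to 101% in wild type. Without Krt19 it was 92.5% to 99.9% against 99.8% to 100%.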

How the data were processed

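Total RNA with a biotin label was run on 1-colour Amersham CodeLink arrays, per the labels. The values the authors deposited are linear spot intensities. Their software, background correction and flagging are not given in the sources used, and 153 to 246 values per array lie at or below 0. The 6 array medians differed by 0.0153 on the log2 scale, so no further normalization was applied. Values under the 5th percentile of positive values (0.0811) were set to that floor. Probes with at least 2 values per genotype and a mean above the 25th percentile entered limma 3.58.1 (R 4.3.3; trend in the variance prior, Benjamini-Hochberg over all tested probes, two-sided), a fit first tested on simulated data. A fold is the log2 change taken back to the linear scale. Where the lower genotype's mean log2 value lay below the dim-probe limit, the fold is a lower bound, with values below the limit raised to it. Such a probe passed the filter only through the other genotype, so it could be called in 1 direction only. The number of arrays limits the precision.

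Gene names come from GEO's annotation of the platform, updated through Entrez identifiers to RefSeq (GRCm38.p6). It gave 1 symbol for 15120 probes, several for 38 and none for 5131. Members and lists were chosen with earlier results of these data known. All member probes are given, and from each list the called genes with the largest change, up to 4, or the brightest where fewer than 2 passed. Others are marked in the text, apart from some genes named only as too dim to be tested.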

Additional observations from a re-analysis of the deposited data

How the results depend on the processing

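Ret and Osr1 stayed higher and Emx2 lower, each past the threshold, in all 16 alternative settings (other normalizations, floors, filters and variance priors, the replicate block, and each array left out). The log2 change ran from 0.34 to 0.47 for Ret (adjusted p from 0.000360 to 0.0277), from 0.55 to 0.72 for Osr1 and from -0.67 to -0.57 for Emx2. Sall1, Npnt and the dimmer Calb1 probe did not pass in any of the 15 settings that kept them. Among the members' counts, those called as lower went from 1 to 2 and those called in all from 3 to 4 of 7 under quantile and under cyclic loess normalization, through the brighter Calb1 probe. These scalings gave 5996 and 5998 called probes against 6221. With the array number as a replicate block there were 6019, and no member's call changed. Deviations of same-numbered arrays correlated at -0.022 to -0.00074 and those of differently numbered arrays at -0.020 to 0.025, so no shared deviation was seen. The labels do not say whether the numbers pair the samples, and these correlations cannot settle it. With each array left out, 4795 to 7317 probes were called. The dim signal of Gfra1, Sall1 and Calb1 probe 5856 limits what these arrays show of them.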
